A study of Mus musculus with 2 samples.

Results

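Nanos2, Nanos3, Dnd1, Dazl, Lin28a, Lin28b and Pum2 encode RNA-binding proteins that regulate messenger RNAs or microRNAs in the mouse germline. All 7 were found by symbol among the 26893 named genes of both single-cell libraries. The libraries come from undifferentiated spermatogonia, the mitotic germ cells of the testis that include its stem cells, and the study asked what the chromatin remodeller CHD4 does in them. Germ cells were isolated from testes of adult C57BL/6 mice by magnetic selection for THY1, a surface protein, and kept in serum-free medium with GDNF and bFGF on a feeder layer of SNL76/7, embryonic fibroblasts of the mouse treated with mitomycin. The Chd4 siRNA group was transfected with siRNA against Chd4, and the control siRNA group with a non-targeting siRNA. In both groups the cells were dislodged from the feeder layer and received 75 pmol siRNA with 2 µL Lipofectamine on plastic for 24 h. Cells of 3 biological replicates were pooled into 1 library per group before droplet capture (10x Genomics, v2 chemistry), so no spread between replicates can be measured and no test was made. Every interval below is a 95% interval for counting error only.

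NANOS2 and NANOS3 are zinc-finger proteins that bind RNA together with partners and bring target messages to the CCR4-NOT deadenylase, which shortens poly(A) tails. DND1 is a partner of NANOS2 in that recruitment, DAZL promotes translation of germline messages by binding their 3′ UTRs, and PUM2 is a Pumilio protein that binds an 8-base element in 3′ UTRs and represses its targets. LIN28A and LIN28B bind precursors of let-7 microRNAs and block their maturation, while mature let-7 represses both Lin28 genes through their 3′ UTRs. NANOS2 is known for keeping spermatogonial stem cells undifferentiated, and LIN28A marks undifferentiated spermatogonia.

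The sequences that tie these genes to each other are the let-7 seed and the Pumilio element, and the matches in the 3′ UTRs of the 7 genes are shown for that reason. RefSeq's table (GRCm38.p6) holds 9 mature mouse let-7 sequences with 1 shared seed, bases 2 to 8, given in capitals for 4 of them.
let-7a-5p: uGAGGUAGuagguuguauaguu
let-7b-5p: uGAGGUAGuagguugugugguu
let-7d-5p: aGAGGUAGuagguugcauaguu
let-7g-5p: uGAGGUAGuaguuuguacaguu

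The complement of that seed, CTACCTC, was searched on the sense strand of the longest annotated 3′ UTR of each gene (GENCODE M21, GRCm38). It occurred 2 times in Lin28a and 4 times in Lin28b, and not in the other 5 genes. Capitals mark the match, and each line runs 5′ to 3′ on the minus strand.
Lin28a, 909 bases after the stop codon, chr4:134005182-134005204: ctgttgaaCTACCTCatttttgc
Lin28a, 1547 bases after the stop codon, chr4:134004544-134004566: ccacaaacCTACCTCactgtgtt
Lin28b, 36 bases after the stop codon, chr10:45381015-45381037: cgggaagtCTACCTCatgcaagc
Lin28b, 2410 bases after the stop codon, chr10:45378641-45378663: gttagtaaCTACCTCtgagtttg
Lin28b, 2582 bases after the stop codon, chr10:45378469-45378491: gcacatggCTACCTCccagctac
Lin28b, 3998 bases after the stop codon, chr10:45377053-45377075: ggcaccgaCTACCTCttcaatca

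Of 2603 3′ UTRs of similar length to that of Lin28a (2775 bases), from 0.8 of it up to its inverse, 14.8% hold at least 1 CTACCTC. For Lin28b, with a 3′ UTR of 4445 bases, the share is 24.0% of 1345 3′ UTRs. A match of letters is a description and does not show that a site is used.

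The Pumilio element, searched as TGTANATA on the sense strand, occurred 2 times in the 3′ UTR of Pum2 itself, 2 times in Lin28b and 1 time in Lin28a. No TGTANATA lies in the annotated 3′ UTRs of Nanos2 (947 bases), Nanos3 (172 bases), Dnd1 (360 bases) or Dazl (1854 bases). The Pum2 lines are on the plus strand and the Lin28 lines on the minus strand.
Pum2, 445 bases after the stop codon, chr12:8750157-8750180: tatagagaTGTATATAgaattata
Pum2, 698 bases after the stop codon, chr12:8750410-8750433: tacagaatTGTATATActtataat
Lin28a, 1735 bases after the stop codon, chr4:134004355-134004378: cctagttgTGTAAATAtaaatgtg
Lin28b, 359 bases after the stop codon, chr10:45380691-45380714: tgtgtgtaTGTAGATAaaagcaca
Lin28b, 848 bases after the stop codon, chr10:45380202-45380225: gagggtaaTGTATATAgtaacatg

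This element is common: 43.9% of 2552 3′ UTRs of like length to that of Pum2 hold it, as do 42.9% of those like Lin28a and 55.8% of those like Lin28b. The genes lie on separate chromosomes (GRCm38): Nanos2 at chr7:18987400-18988962, Nanos3 at chr8:84173731-84185217, Dazl at chr17:50279395-50293636, Lin28a at chr4:134003330-134018841, Lin28b at chr10:45376620-45486395, Pum2 at chr12:8674134-8752581, and Dnd1 on chromosome 18. Nanos2 overlaps the antisense gene Gm45058 by 766 bases, Lin28a overlaps Gm13061 on the other strand by 695 bases, and Dnd1 overlaps the coding gene Wdr55 on the other strand by 140 bases. Whether the authors' counting used strand is not stated in the labels, so reads in these overlaps may belong to either gene. Nanos3 also overlaps Mir181c by 89 bases and Mir181d by 72 bases on its own strand, where strand cannot separate reads.

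Each library holds germ cells and remaining feeder cells. A cell was called a germ cell when its summed UMIs (unique molecule counts) of Ddx4 and Mael, a germline helicase and a piRNA pathway protein, were at least 2 times those of Col1a1 and Fn1, which encode collagen and fibronectin, and a feeder cell in the opposite case. This gave 743 germ cells and 91 feeder cells among 858 cells of the Chd4 siRNA library, and 698 and 82 among 816 cells of the control siRNA library. Among germ cells, 95 in the Chd4 siRNA library and 85 in the control siRNA library had a ratio between 2 and 5, and the highest ratio among cells left unassigned was 1.83 and 1.71. Median depth was 15598 and 15326 UMIs per germ cell, against 40017 and 38081 per feeder cell. Chd4 itself was at 254 CPM (UMIs per 1000000 UMIs of named genes) in Chd4 siRNA germ cells and 533 CPM in control siRNA germ cells, a log2 ratio of −1.07 (−1.14 to −1.01). The 10 germ cell markers not used in the split summed to 1106 and 1091 CPM in germ cells and 55.4 and 76.8 CPM in feeder cells, in the Chd4 siRNA and control siRNA libraries, and none was at 0 in germ cells of either library.

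Dazl was by far the most abundant of the 7 genes in germ cells. Its UMIs came to 12187 in Chd4 siRNA germ cells and 10272 in control siRNA germ cells, or 1012 and 917 CPM. The order below it was the same in both libraries: Dnd1 with 129 and 118 CPM, Pum2 with 55.7 and 55.3 CPM, Nanos3 with 41.4 and 47.8 CPM, Nanos2 with 21.7 and 25.1 CPM, Lin28a with 15.9 and 17.1 CPM, and Lin28b with 14.5 and 15.1 CPM. These levels count 3′ ends, 1 per captured molecule, and were not divided by transcript length, so they can also reflect how well each 3′ end is captured. Dazl stood 7.86-fold above Dnd1 in the Chd4 siRNA library and 7.78-fold in the control siRNA library, and Pum2 stood 1.34-fold and 1.16-fold above Nanos3. Lin28a and Lin28b were the only neighbours whose ratio did not leave 1, at 1.10-fold (0.894 to 1.36) and 1.13-fold (0.914 to 1.40).

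**Figure D1:**
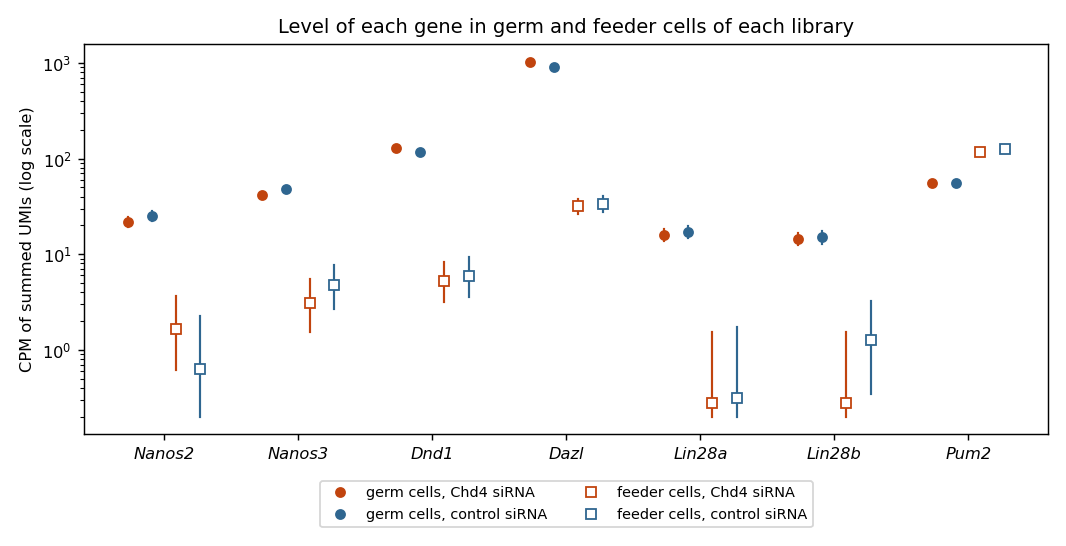
CPM of summed UMIs on a log scale for each gene, in germ cells (filled circles) and feeder cells (open squares) of the Chd4 siRNA and control siRNA libraries; vertical lines are exact Poisson intervals, drawn down to no lower than 0.2 CPM. Dazl lies near 1000 CPM in germ cells of both libraries, and only Pum2 is higher in feeder cells than in germ cells.

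The genes were set beside the feeder cells of the same library, which share its droplets and free RNA. Of the 7, 6 were more than 4-fold higher in germ cells than in feeder cells in both libraries, where 15.0% of 7492 genes in the Chd4 siRNA library and 12.2% of 7146 genes in the control siRNA library were. None of the 7 was more than 4-fold lower, where 7.77% and 7.47% of genes were. These shares are over genes with at least 200 UMIs, a floor that Lin28a and Lin28b did not reach in either library.

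Dazl had 1012 CPM in germ cells and 31.7 CPM in feeder cells of the Chd4 siRNA library, a 31.9-fold difference (26.5 to 38.7). In the control siRNA library it had 917 CPM in germ cells and 33.3 CPM in feeder cells, 27.5-fold (22.7 to 33.6). Dnd1 was 24.4-fold (15.5 to 40.6) and 19.7-fold (12.6 to 32.9) higher in germ cells. In feeder cells Dazl stood at 3.13% and 3.64% of its germ cell level and Dnd1 at 4.10% and 5.07%, beside 2.96% and 3.78% for Ddx4 and 3.64% and 3.40% for Mael, which were used to make the split.

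Nanos3 reached 7.39% of its germ cell level in feeder cells of the Chd4 siRNA library, with 11 UMIs in 91 cells, and 9.88% in those of the control siRNA library, with 15 UMIs in 82 cells. It was 13.5-fold (7.50 to 27.3) and 10.1-fold (6.08 to 18.2) higher in germ cells. Per 1000 Dazl UMIs there were 40.9 and 52.1 Nanos3 UMIs in germ cells, against 96.5 and 142 in feeder cells. Dnd1, which like Nanos3 had no part in the split, had 127 and 129 UMIs per 1000 Dazl UMIs in germ cells and 167 and 179 in feeder cells. Whether free RNA gives the Nanos3 UMIs in feeder cells was not tested.

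Nanos2 had 6 feeder cell UMIs in the Chd4 siRNA library and 2 in the control siRNA library, and was 12.98-fold (5.89 to 35.7) and 39.9-fold (10.9 to 331) higher in germ cells. Lin28a had 1 feeder cell UMI in each library, which leaves its folds of 57.3 (10.2 to 2275) and 54.2 (9.61 to 2152) known mainly by their lower bounds. Lin28b had 1 and 4 feeder cell UMIs, for folds of 51.9 (9.20 to 2063) and 12.0 (4.60 to 44.5). These counts are too few to order the 3 genes by how far feeder cells lack them.

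Pum2 ran the other way. It had 55.7 CPM in germ cells and 118 CPM in feeder cells of the Chd4 siRNA library, 0.471-fold (0.417 to 0.533), and 55.3 CPM in germ cells and 126 CPM in feeder cells of the control siRNA library, 0.440-fold (0.387 to 0.501). Boll, the ancestral relative of Dazl, had 202 and 184 germ cell UMIs and 2 feeder cell UMIs in each library. Nanos1 was not analysed here.

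To compare shares of cells at equal depth, each cell was thinned to 9000 UMIs, which left 686 Chd4 siRNA and 647 control siRNA germ cells and 84 and 76 feeder cells. Dazl was found in 99.9% and 99.8% of germ cells. Only 1 thinned germ cell in each library had no Dazl UMI. In feeder cells Dazl was found in 19.0% and 10.5%.

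Dnd1 was found in 63.4% of Chd4 siRNA germ cells (59.7 to 67.0) and 63.8% of control siRNA germ cells (60.0 to 67.5), against 2.38% and 3.95% of feeder cells. Nanos3 was found in 27.3% (24.0 to 30.8) and 25.8% (22.5 to 29.4) of germ cells, against 3.57% and 6.58% of feeder cells. Nanos2 was found in 15.3% (12.7 to 18.2) and 17.9% (15.1 to 21.1), against 1.19% and 1.32%. All 3 NANOS pathway genes were thus well above the feeder background in both libraries.

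Lin28a was found in 13.3% (10.8 to 16.03) of Chd4 siRNA germ cells and 14.1% (11.5 to 17.0) of control siRNA germ cells. None of 84 and 76 thinned feeder cells held a Lin28a UMI. At 3 counts of the total this allows up to 3.57% and 3.95% of feeder cells with a UMI, and it sets no limit on the share of cells that express the gene. Lin28b was found in 12.7% (10.3 to 15.4) and 13.6% (11.1 to 16.5) of germ cells, with 0 and 1 feeder cells holding it. Pum2 was found in 37.8% (34.1 to 41.5) and 37.2% (33.5 to 41.1) of germ cells, against 54.8% and 67.1% of feeder cells. Without thinning the germ cell shares were higher, at 24.2% and 27.5% for Nanos2, 38.8% and 38.0% for Nanos3, 81.4% and 79.1% for Dnd1, 19.9% and 20.8% for Lin28a, 19.2% and 21.5% for Lin28b and 54.2% and 56.6% for Pum2.

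The NANOS genes varied over germ cells beyond the 90th percentile of genes of their level, and the LIN28 genes did not pass it. For Nanos2 in the Chd4 siRNA library this held only with its highest cell counted. In thinned cells the variance of Nanos3 UMIs was 1.42 times their mean in the Chd4 siRNA library and 1.70 times in the control siRNA library. Genes of like mean UMI count had a 90th percentile of 1.204 and 1.209 for the same ratio. There were 13 and 19 cells with 3 or more Nanos3 UMIs, where a Poisson count of the same mean gives 4.60 and 4.93. Nanos2 had ratios of 1.25 and 1.45, against 90th percentiles of 1.18 and 1.18. One cell matters here: before thinning a single control siRNA germ cell held 17 Nanos2 UMIs, while the highest Chd4 siRNA germ cell held 6. Without the highest cell of each library the Nanos2 ratio was 1.16, below the 90th percentile, and 1.19, just above it. That of Nanos3 was 1.32 and 1.61.

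Lin28a had a variance of 1.13 and 1.08 times its mean and Lin28b 1.06 and 0.987 times, all below the 90th percentile of genes of like mean, although Lin28a was above their median of 1.04 in both libraries. Pum2, at 1.02 and 1.07, and Dnd1, at 1.19 and 1.18, were also within that range. The Dazl ratio, 1.85 and 1.57, was near the median of 1.78 and 1.59 for genes of like mean. Dazl UMIs per thinned cell had quartiles of 6, 9 and 12 in the Chd4 siRNA library and 6, 8 and 11 in the control siRNA library.

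**Figure D2:**
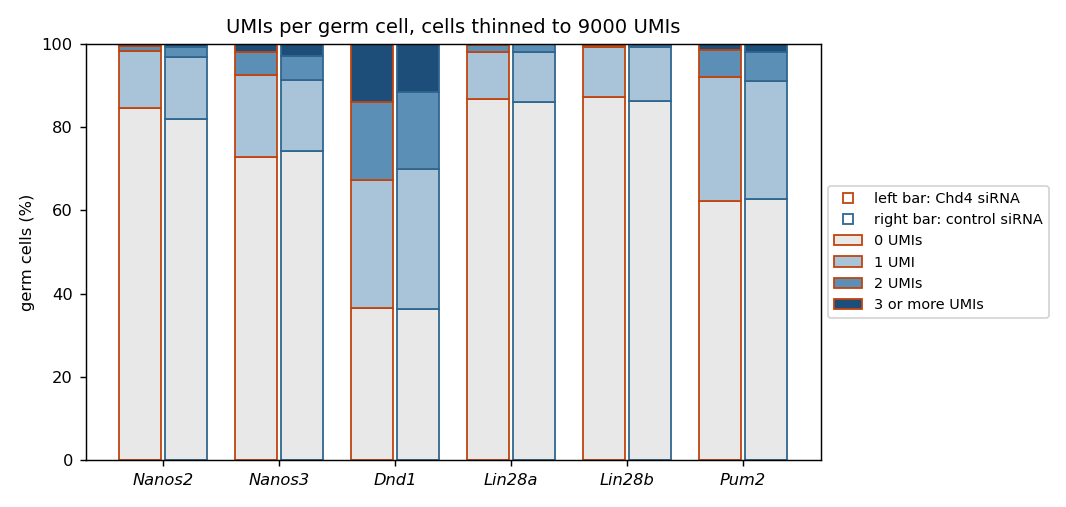
Share of thinned germ cells (percent) with 0, 1, 2, or 3 or more UMIs of each gene, with the Chd4 siRNA library in the left bar and the control siRNA library in the right bar of each pair. Dazl, found in nearly every cell, is left out; more than 3 in 5 cells hold no UMI of any given gene other than Dnd1.

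Germ cells held a median of 3 of the 7 messages in both libraries. No thinned germ cell held all 7, and 1 cell in each library held 6. For the NANOS pair, 29 Chd4 siRNA germ cells (4.23%) and 42 control siRNA germ cells (6.49%) had UMIs of both genes. Nanos3 alone was found in 158 and 125 cells and Nanos2 alone in 76 and 74, so neither gene excluded the other. The product of the shares gives 28.6 and 29.9 cells with both, so the observed number was 1.01 times that in the Chd4 siRNA library and 1.40 times in the control siRNA library. In control siRNA germ cells, 36.2% of cells with a Nanos2 UMI and 23.5% of cells without one had Nanos3. In Chd4 siRNA germ cells the shares were 27.6% and 27.2%. The difference between the libraries was not tested.

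For the LIN28 pair, 12 Chd4 siRNA germ cells and 9 control siRNA germ cells had both genes, against 11.5 and 12.4 from the product of the shares. Lin28a alone was found in 79 and 82 cells and Lin28b alone in 75 and 79. At this depth a cell with 1 UMI of either gene is not shown to lack the other.

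Nanos2 and Lin28b were found together in 20 and 22 cells, 1.502 and 1.394 times the product of the shares, the highest value among the 21 pairs in the Chd4 siRNA library. In G2M cells of the control siRNA library alone the pair was at 0.835 times the product. Nanos3 and Lin28a were found together in 33 cells of the Chd4 siRNA library, 1.33 times the product, and in 22 cells of the control siRNA library, 0.937 times. Cells with a Lin28a UMI held 0.659 Nanos3 UMIs on average and cells without one 0.333 in the Chd4 siRNA library, a fold of 1.98 (1.46 to 2.66), and the fold was not repeated in the control siRNA library.

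Of 36 ordered pairs not split by Dazl, 1 had a fold whose interval lay on the same side of 1 in both libraries. Nanos3 was at 33.5 CPM in cells with a Pum2 UMI and 46.8 CPM in cells without one in the Chd4 siRNA library, 0.714-fold (0.541 to 0.937). In the control siRNA library it was at 35.96 CPM in cells with Pum2 and 48.4 CPM in cells without, 0.742-fold (0.561 to 0.974). Pum2 and Nanos3 were found together in 64 and 50 cells, 0.907 and 0.804 times the product of the shares. The pair was picked from the 36 after its values were seen, and the intervals treat UMIs as independent, which the spread of Nanos3 over cells does not bear out. In 1 library or the other, 10 further ordered pairs had an interval off 1.

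**Figure D3:**
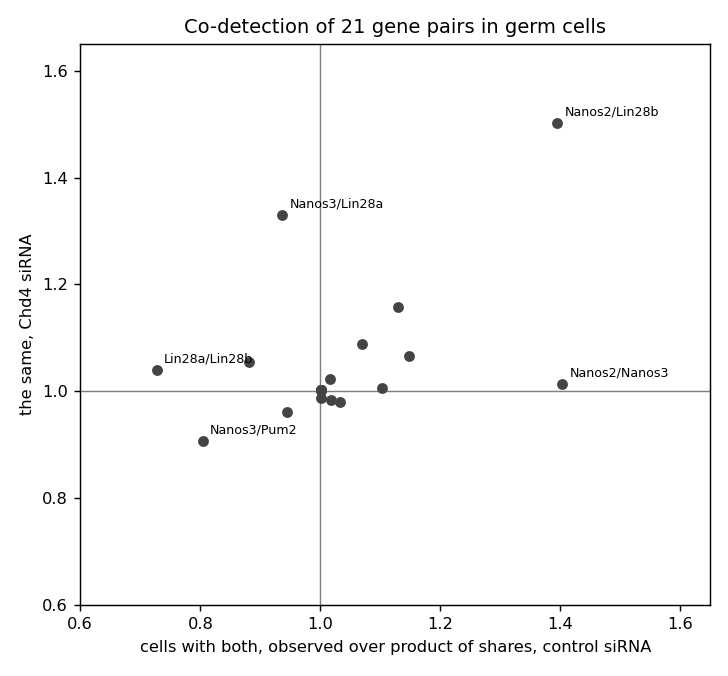
For each of the 21 pairs, the number of thinned germ cells with UMIs of both genes over the number from the product of their shares, in the Chd4 siRNA library (vertical axis) and the control siRNA library (horizontal axis). Pairs past 1.2-fold from 1 in either library are named; Nanos2/Lin28b is past 1.2 in both, Nanos2/Nanos3 past it only in the control siRNA library, and pairs with Dazl lie at 1 since nearly every cell holds it.

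Cells with and without a UMI of each gene were compared for markers of the undifferentiated state and of entry into differentiation. Over 114 comparisons of 6 of the regulators (Dazl, found in nearly all cells, was not split) with 19 single genes, 6 were higher and 2 lower in both libraries by their intervals. In each library taken alone, 19 of the 114 had an interval off 1. These 8 are given as descriptions, chosen after their values were seen.

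Cells with either NANOS gene held more Egr4, an early growth response transcription factor gene needed for male fertility in the mouse. In Chd4 siRNA germ cells there were 1.22 Egr4 UMIs per cell with Nanos2 and 0.730 per cell without it, 1.67-fold (1.36 to 2.04), and in control siRNA germ cells 1.10 and 0.748, 1.48-fold (1.2 to 1.81). With Nanos3 there were 1.11 Egr4 UMIs per Chd4 siRNA germ cell and without it 0.689, 1.61-fold (1.35 to 1.92), and in control siRNA germ cells 1.07 and 0.721, 1.49-fold (1.23 to 1.79). Egr4 was thus the only gene of the 19 higher with both NANOS genes in both libraries.

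Cells with Nanos3 also held less Lhx1 and less Pou3f1, transcription factor genes among the markers of the undifferentiated state. Lhx1 was at 0.794-fold (0.639 to 0.979) in cells with over cells without Nanos3 in the Chd4 siRNA library and 0.784-fold (0.626 to 0.975) in the control siRNA library. Pou3f1 was at 0.755-fold (0.593 to 0.955) and 0.740-fold (0.584 to 0.931). Egr4, higher in cells with Nanos3, is in the same list of markers. Summed, that list was at 1.01-fold (0.960 to 1.06) with Nanos3 in the Chd4 siRNA library. In the control siRNA library it was at 0.949-fold (0.901 to 0.998). Foxc2 lay on opposite sides of 1 in cells with over cells without Nanos2, at 1.56-fold (1.14 to 2.11) in the Chd4 siRNA library and 0.704-fold (0.487 to 0.994) in the control siRNA library, and the difference between the libraries was not tested.

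Cells with Lin28a held about 2 times as much Crabp1, a retinoic acid binding protein gene. Crabp1 was at 0.791 UMIs per cell with Lin28a and 0.400 without it in Chd4 siRNA germ cells, 1.98-fold (1.498 to 2.58), and at 0.516 and 0.246 in control siRNA germ cells, 2.096-fold (1.47 to 2.94). Sohlh1, a transcription factor gene of differentiating spermatogonia, was 1.27-fold (1.04 to 1.55) and 1.46-fold (1.18 to 1.78) higher in cells with Lin28a. Uchl1, a ubiquitin hydrolase and marker of undifferentiated spermatogonia, was also higher, at 1.15-fold (1.02 to 1.29) and 1.14-fold (1.01 to 1.29). The summed differentiation entry list, which holds Crabp1 and Sohlh1, was 1.302-fold higher with Lin28a in the Chd4 siRNA library and 1.303-fold in the control siRNA library. Without Crabp1 and Sohlh1 the rest of that list was at 1.02-fold (0.791 to 1.29) and 0.852-fold (0.634 to 1.13), and its member Rhox13 was at 0.688-fold (0.441 to 1.03) and 0.886-fold (0.578 to 1.31). Lin28b showed the Crabp1 difference at 1.45-fold (1.06 to 1.95) and 1.49-fold (1.002 to 2.17).

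Summed lists differed less. Of 48 comparisons of the 6 regulators with 8 lists, 6 were higher and 3 lower in both libraries, while 15 in the Chd4 siRNA library and 19 in the control siRNA library had an interval off 1 in the library taken by itself. The undifferentiated state list was 1.09-fold (1.05 to 1.14) and 1.06-fold (1.01 to 1.11) higher in cells with Dnd1, in the Chd4 siRNA and control siRNA libraries. The let-7 target list was 1.07-fold (1.02 to 1.12) and 1.06-fold (1.01 to 1.11) higher in cells with Pum2. A single member gave 635 of the list's 1350 CPM in Chd4 siRNA germ cells and 643 of 1400 CPM in control siRNA germ cells. Split by the LIN28 genes, the list did not repeat between libraries. With Lin28a it was at 1.04-fold (0.980 to 1.11) in the Chd4 siRNA library and 0.861-fold (0.805 to 0.919) in the control siRNA library. With Lin28b it was at 1.11-fold (1.04 to 1.18) and 0.958-fold (0.897 to 1.02). S phase genes were higher in cells with Lin28b, at 1.09-fold in both libraries, and in cells with Pum2, at 1.06-fold and 1.05-fold. They were lower in cells with Nanos3, at 0.940-fold and 0.950-fold, and in cells with Lin28a, at 0.941-fold and 0.955-fold. The G2M list was higher in cells with Lin28b, at 1.13-fold and 1.05-fold, and lower in cells with Dnd1, at 0.970-fold and 0.916-fold.

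**Figure D4:**
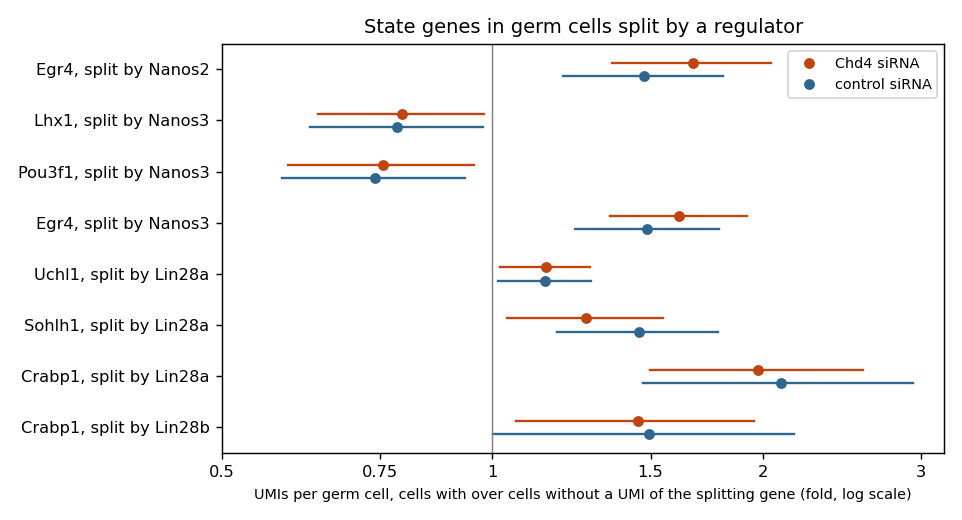
UMIs of a state marker per thinned germ cell, as the fold of cells with over cells without a UMI of the splitting gene (log scale), with intervals for counting error, in the Chd4 siRNA and control siRNA libraries. The 8 comparisons off 1 on the same side in both libraries are drawn; Crabp1 split by Lin28a is highest, near 2 in both.

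Phases were called from S and G2M gene scores in thinned germ cells. Scored over both libraries together, G1, S and G2M held 37.3%, 35.9% and 26.8% of Chd4 siRNA germ cells and 37.6%, 34.5% and 28.0% of control siRNA germ cells. Scored in each library alone, the shares were 39.7%, 39.8% and 20.6% in Chd4 siRNA and 32.8%, 37.9% and 29.4% in control siRNA germ cells. The phase shares thus depend on the scoring. In Chd4 siRNA germ cells Dazl was at 996 CPM in G1, 1030 CPM in S and 1051 CPM in G2M. In control siRNA germ cells it was at 831 CPM in G1, 1022 CPM in S and 962 CPM in G2M. S over G1 was 1.03-fold (0.975 to 1.10) in the Chd4 siRNA library and 1.23-fold (1.15 to 1.31) in the control siRNA library, and with phases scored in each library alone it was 1.02-fold and 1.22-fold. G2M over G1 for Dazl was 1.06-fold (0.991 to 1.12) and 1.16-fold (1.08 to 1.24) in the same order. With phases scored in each library alone, Dazl G2M over G1 was 1.09-fold (1.02 to 1.16) and 1.18-fold (1.10 to 1.27). Lin28a was at 19.97 CPM in G1, 11.7 CPM in S and 19.9 CPM in G2M in the Chd4 siRNA library, with S at 0.588 times G1 (0.349 to 0.972). In the control siRNA library its levels were 18.3, 17.9 and 16.6 CPM. For Nanos2, Nanos3, Dnd1, Lin28b and Pum2, the S over G1 and G2M over G1 intervals included 1 in both libraries when phases were scored over both together. Scored in each library alone, Nanos3 in the Chd4 siRNA library was at 0.702 times G1 in S (0.527 to 0.933) and in the control siRNA library at 1.04 times (0.764 to 1.42).

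The comparison of Chd4 siRNA with control siRNA germ cells asked whether the regulators moved with the loss of Chd4 message. None of the 7 was past 1.2-fold in either direction, where 8.65% of 8200 genes with at least 200 UMIs were higher and 5.38% were lower by that much. All 7 had at least 200 germ cell UMIs over both libraries. The median log2 ratio of those 8200 genes was 0.054. In summed UMIs of a cell class, fewer expressing cells and less RNA per cell cannot be told apart.

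For the translational activator Dazl, Chd4 siRNA germ cells had 1012 CPM and control siRNA germ cells 917 CPM, a log2 ratio of 0.14 (0.10 to 0.18). Dnd1 had 129 and 118 CPM, a log2 ratio of 0.13 (0.022 to 0.24). The split genes Ddx4 and Mael had log2 ratios of 0.11 and 0.13, close to those of Dazl and Dnd1. The intervals of Dazl and Dnd1 lay above 0, as did those of 19.0% of the 8200 genes, so 2 of 7 is near the background. By phase the Dazl log2 ratio was 0.25 (0.18 to 0.32) in G1, 0.031 (−0.034 to 0.095) in S and 0.11 (0.045 to 0.18) in G2M, and whether the phases differ was not tested. These values by phase are not ratios of the thinned levels by phase given above. The Dnd1 interval reached below 0 with edgeR's TMM scaling, at 0.086 (−0.021 to 0.19), and with thinned cells, at 0.055 (−0.092 to 0.20). Thinned cells held 790 and 717 Dnd1 UMIs, against 1551 and 1320 in all germ cells.

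Nanos3 had 41.4 CPM in Chd4 siRNA germ cells and 47.8 CPM in control siRNA germ cells, a log2 ratio of −0.20 (−0.38 to −0.026), an interval below 0, as 8.12% of the 8200 genes had and none of the other 6 regulators at this setting. In thinned cells the ratio was −0.068 (−0.32 to 0.19), and the share of germ cells with a UMI was 1.45 points higher in the Chd4 siRNA library (−3.30 to 6.17). At equal depth per cell the Nanos3 interval thus included 0. Thinning left 258 and 255 Nanos3 UMIs, against 499 and 535 in all germ cells, and fewer counts widen the interval by themselves. Over all settings the Nanos3 log2 ratio ran from −0.25 to −0.068, so the thinned value was the one nearest 0. Nanos2 had 21.7 and 25.1 CPM, a log2 ratio of −0.21 (−0.46 to 0.038), and without the highest cell of each library −0.16 (−0.41 to 0.097). The Nanos2 interval lay below 0 with TMM scaling, at −0.25 (−0.50 to −0.0047), and with feeder and unassigned cells included, at −0.25 (−0.49 to −0.0075). Its share of cells differed by −2.62 points (−6.64 to 1.37).

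Lin28a had 15.9 CPM in Chd4 siRNA germ cells and 17.1 CPM in control siRNA germ cells, a log2 ratio of −0.097 (−0.39 to 0.20). Lin28b had 14.5 and 15.1 CPM, a log2 ratio of −0.062 (−0.38 to 0.25). Pum2 had 55.7 and 55.3 CPM, a log2 ratio of 0.012 (−0.15 to 0.17), and in feeder cells 118 and 126 CPM, a log2 ratio of −0.086 (−0.29 to 0.11). For these 3 genes no difference was detectable at this depth, and the Lin28a interval reaches down to 0.76 times the control siRNA level. Chd4 was lower in feeder cells as well, at 53.4 CPM in the Chd4 siRNA library and 156 CPM in the control siRNA library. Feeder marker genes summed to 91.5 CPM in Chd4 siRNA germ cells and 83.7 CPM in control siRNA germ cells, against 4329 and 3919 CPM in feeder cells. Of the 10 markers, 9 had at least 10 germ cell UMIs in each library, Lum was at 0 in control siRNA germ cells, Col1a1 was at 16.4 and 8.57 CPM in germ cells, and their part in these ratios was not tested.

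**Figure D5:**
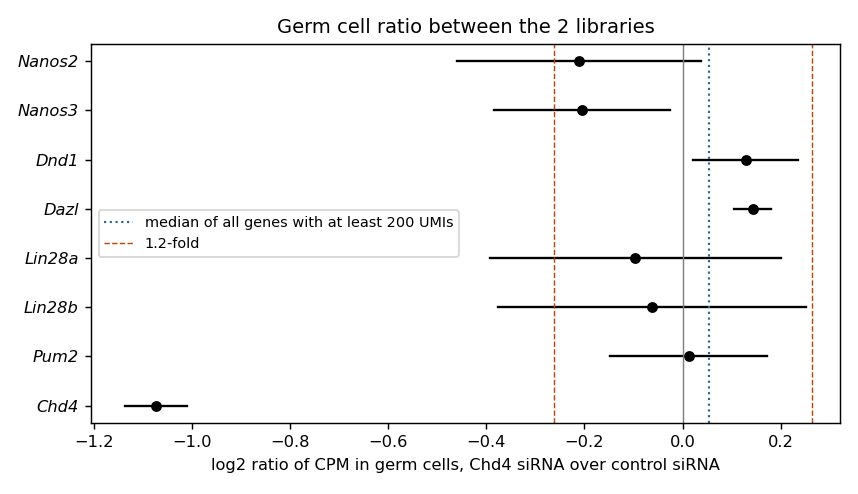
Log2 ratio of CPM in germ cells, Chd4 siRNA over control siRNA, with exact intervals for counting error, for the 7 genes and the siRNA target Chd4. The dotted line is the median of 8200 genes and the dashed lines mark 1.2-fold; Chd4 is at −1.07 and all 7 regulators lie between the dashed lines.

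The partner and target genes of the regulators were also mostly within 1.2-fold. Of 23 measured genes of the CCR4-NOT deadenylase and P bodies, 1 was higher (the decapping enhancer gene Edc3, log2 0.27) and 0 lower, with a median log2 ratio of 0.016. Of 5 Pumilio, DAZL and CPEB relatives, 1 was higher (Cpeb1, 0.30) and 0 lower, with a median of 0.051. Of 25 other germline RNA-binding protein genes, 1 was higher (Ythdc2, 0.35), with a median of 0.041. All of these medians are near the 0.054 of all genes.

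None of 8 measured genes for let-7 processing and uridylation was past 1.2-fold, with a median of −0.042. Of 16 known let-7 targets 0 were higher and 2 were lower by that much, where 8.65% and 5.38% of all genes were. Their median was −0.048, and by their intervals 2 lay above 0 and 2 below it. Among those lower was Hmga1, a chromatin protein gene with 38.9 CPM in Chd4 siRNA germ cells and 74.6 CPM in control siRNA germ cells (log2 −0.94, −1.11 to −0.78). Hmga2, in the same list, had 8.14 and 9.20 CPM (log2 −0.18, −0.59 to 0.24).

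Among transcripts linked to NANOS2 repression, 1 of 4 was higher, Sohlh2, a transcription factor gene of differentiating spermatogonia, with 32.0 CPM in Chd4 siRNA germ cells and 24.7 CPM in control siRNA germ cells (log2 0.37, 0.14 to 0.60). The list's median was 0.18 over these 4 and 0.085 over all 6 members with at least 20 UMIs. None of 6 DAZL-linked transcripts was past 1.2-fold, with a median of 0.12 over these and 0.094 over 8 members with at least 20 UMIs. In the differentiation entry list 2 of 4 were higher, Crabp1 (log2 0.58, 0.39 to 0.78) and Sohlh2, which both lists hold, and the median was 0.25 over these and 0.12 over all 10 members. In the undifferentiated state list 0 of 15 were higher and 2 were lower, Foxc2 (log2 −0.35) and Sall4 (log2 −0.32). The median of that list was −0.0063 over these 15, and by their intervals 2 members lay above 0 and 4 below it. Over all 8200 genes 8.65% were higher and 5.38% lower by that much, and no list was tested.

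The genes most like each regulator over thinned control siRNA germ cells were looked up again in the Chd4 siRNA library, by Pearson's r of log counts among about 6089 genes and over 647 and 686 cells. For Nanos3, 4 of the 5 were above the 99th percentile of all genes in the Chd4 siRNA library: Hmgn5 (r = 0.23 in Chd4 siRNA and 0.21 in control siRNA germ cells), Gm9112 (0.20 and 0.28), Asb9 (0.19 and 0.21) and Igfbp6 (0.12 and 0.27). Hmgn5, a nucleosome-binding protein gene, ranked first in the Chd4 siRNA library, with Gm9112 and Asb9 next. Hmgn5, Gm9112 and Asb9 all lie on the X chromosome, which was noticed after the genes were named. Fmr1, among the 5 genes most like Pum2, lies there too. The share of X-linked genes among those compared was not counted, so no result about Nanos3 is drawn from this. For Dazl, Calm2, a calmodulin gene (0.26 and 0.28), ranked first in both libraries, and Hnrnpf (0.25 and 0.26) ranked 3 in both. For Nanos2, 2 of 5 passed that percentile, Rps2 (0.14 and 0.16) and Tmsb10 (0.13 and 0.16). None of the 5 genes of Dnd1, Lin28a, Lin28b or Pum2 did. All these correlations are weak, and cells of 1 library share its preparation.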

How the data were processed

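The authors deposited 1 matrix of whole UMI counts for each of the 2 groups. The submitters' processing notes name Cell Ranger 2.1.0, Seurat and mm10 without their roles. The gene table names 26893 of 27998 rows, and the 1105 others, with 12.6% of UMIs in the Chd4 siRNA library and 12.1% in the control siRNA library, stayed out of totals. Each matrix ends inside its last cell, which was left out. Cells needed 1000 UMIs. Scrublet (scanpy 1.11.5) called 6 and 8 cells doublets (0.70% and 0.98%), which were kept. Among the barcodes held, 1 was shared by both libraries.

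UMIs were summed by library and cell class and scaled to CPM. Sums have exact Poisson, shares Clopper-Pearson, ratios exact conditional binomial and share differences Newcombe intervals. Cells were thinned without replacement to 9000 UMIs, leaving out 57 and 51 germ cells. Phases came from scanpy scores. The ratio step was run on simulated Poisson counts, which hold no spread between cells or replicates. That run checks the calculation and cannot show how well the intervals cover such spread. 3′ UTRs came from GENCODE M21. Alternatives covered the split, depth, scaling (edgeR 4.0.16, DESeq2 1.42.0), doublets, thinning and phases. Named genes were the 7 regulators, Chd4, the split genes, paralogs, the 3 highest and 3 lowest of each list with at least 200 UMIs, and the 5 genes most like each regulator. The regulators and lists were chosen with earlier results of these data known. Some genes of these lists are not reported here.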

Additional observations from a re-analysis of the deposited data

How the results depend on the processing

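All recomputed germ cell levels of the 7 genes stayed within their counting intervals. Of the recomputed log2 ratios of Chd4 siRNA over control siRNA germ cells, 90 stayed within the main interval and 8 left it. Those 8 were Dazl at 0.10 with TMM scaling, 0.25 in G1 and 0.031 in S; Lin28a at 0.41 in G1 and −0.76 in S; Lin28b at −0.50 in S and 0.30 in G2M; and Pum2 at 0.17 in G2M. The phase values among these are not ratios of the thinned levels by phase given above. Lin28a had few UMIs by phase in thinned cells scored over both libraries together. It had 46 in G1 and 26 in S in the Chd4 siRNA library, and 40 and 36 in the control siRNA library. The difference in the share of cells with Dnd1 was 5.51 points when cells were thinned to 5000 UMIs, against −0.42 points at 9000. Of the co-detection values, Nanos2 with Lin28b moved to 0.835 in G2M cells and Nanos3 with Lin28a to 1.45 in S cells of the control siRNA library. As means of per-cell CPM, the log2 ratios of germ over feeder cells were 3.75 for Dnd1, 3.83 for Dazl and −1.26 for Pum2 in the Chd4 siRNA library, and 3.85 for Dazl and 2.09 for Lin28b in the control siRNA library. With genes of at least 20 UMIs, 15.8% of genes were higher and 12.5% lower past 1.2-fold. The cause of these shifts was not tested. Leaving out the cell with most UMIs of a gene was chosen after seeing the data, and gave −0.16 for Nanos2. No paired analysis was possible because each group is 1 library of pooled replicates. Depth limits Nanos2, Lin28a and Lin28b, which had under 300 UMIs per library.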
